A study of Mus musculus with 3 samples.

Results

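The cyclins of the first gap phase of the cell cycle, the kinases they activate and the inhibitors of these kinases were followed through 3 fractions of mouse epididymal fat. The set holds 10 genes chosen by name: the D cyclins Ccnd1, Ccnd2 and Ccnd3, the kinases Cdk4 and Cdk6, the inhibitors Cdkn1a and Cdkn1b of the CIP/KIP family, and the inhibitors Cdkn2a, Cdkn2b and Cdkn2c of the INK4 family. They are 10 of the 37074 gene names on the arrays, and they are read by 25 of 56605 probes. In a cell that has been called to divide, a D cyclin binds CDK4 or CDK6, and the active pair phosphorylates the retinoblastoma protein, which then releases E2F factors that switch on the genes of DNA replication. INK4 proteins bind the kinase and keep the cyclin away, whereas CIP/KIP proteins bind the assembled complex and also stop cyclin E with CDK2. Adipocyte precursors divide in fat and in culture, and adipocytes filled with lipid have left the cell cycle, so these genes are a standard readout of the step between the states.

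The cells came from male C57/BL mice of 20 weeks, with no transgene or treatment in any group. Fat was digested with collagenase and spun at 9 g for 1 s, and the cells in the lower phase were taken as stromal vascular cells (SVC). A spin of the floating cells at 226 g for 3 min left mature adipocytes (MA) on top, and the cells that sank in this spin were SPA, short for small proliferative adipocytes, which the record's title calls an adipose precursor. SVC and SPA were grown in DMEM to 90% confluence before RNA was taken, and no culture is described for MA, so that the culture and the type of cell cannot be told apart wherever MA is compared with either of the others. The titles give SVC and SPA the same date and MA another, which cannot be told apart from the fraction either. How many mice were pooled is not given in the sources used here.

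Each fraction was measured on 1 array, so no difference has a replicate check and no test was possible. The precision is limited by this number of arrays. Expression is given as a level, the log2 of the background-corrected intensity of a probe over the 75th percentile of its array, so that 0 is the brightness of that percentile. Levels compare 1 probe between arrays and do not compare genes. Of 59305 spots that are not controls, between 58.6% and 61.4% were well above background, and none was saturated. For probes spotted 10 times the median SD of the log2 signal was between 0.038 and 0.046 within an array, which covers the error of spotting and not that of animals or cultures. In bulk samples, fewer cells of a type and less RNA per cell cannot be told apart.

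The labels were set against markers of the cell types that fat could hold. All 7 adipocyte markers were well above background in MA, with a summed level, in multiples of the 75th percentile, of 1387. This compares with 25.6 in SPA and 4.56 in SVC, where Adipoq and Plin1 were not well above background. The 3 fractions also carried markers of other cells. All 7 macrophage markers were well above background on every array, with a summed level of 547 in SVC, 601 in SPA and 194 in MA. Lyz2 made up most of these sums, and C1qa and C1qb ran otherwise, with levels of 2.68 and 1.66 in SVC, -0.50 and -0.83 in SPA, and 2.99 and 2.79 in MA. The 6 endothelial markers had summed levels of 3.03, 5.01 and 32.6 in the same order. Of the red cell markers, the haemoglobin gene Hba-a1 had a level of -2.63 in SVC, -2.52 in SPA and 8.38 in MA. Fibroblast and progenitor markers summed to 223, 113 and 217, and those of smooth muscle to 727, 329 and 45.5. Those of the mesothelium summed to 26.9, 6.96 and 20.7, those of lymphocytes to 6.17, 6.76 and 7.48, and those of Schwann cells to 0.287, 0.571 and 2.44. Such sums follow the brightest probes of a list. Of the 7 lymphocyte markers, 3 were well above background in SVC and 5 in each of SPA and MA, and Cd3e and Cd4 made up most of their sums. Acta2 and Tagln made up most of the smooth muscle sums, while Myh11 and Des were higher in MA than in SPA, with log2 ratios of 1.06 and 0.63. Of the fibroblast and progenitor markers, Pdgfra, Pdgfrb and Ly6a were lower in MA than in SPA, with log2 ratios of -2.05, -1.42 and -0.32. The 4 markers of epididymal epithelium were not well above background on any array. The part of these cells in the values that follow was not tested.

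A set of probes at which fractions differed is printed. For Ccnd1, Cdk6, Cdkn2a and Cdkn2c the probe printed is the one that stands for the gene, and for Cdk4 and Cdkn1a it is another probe. Only a stretch of 30 bases is given for each, except for the Cdk4 probe whose 60 bases are shown whole. Letters run 5′ to 3′, and positions are those of the mm9 build in the array annotation.
Ccnd1 probe at chr7:152116202-152116261, minus strand: ttaatctgttaggttctagtgttccgtctt
Cdk4 probe at chr10:126503162-126503221, plus strand: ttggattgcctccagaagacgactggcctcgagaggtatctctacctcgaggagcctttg
Cdk6 probe at chr5:3529287-3529346, plus strand: tgcgtagaagtatatggcttcactgtaaag
Cdkn1a probe at chr17:29227986-29228045, plus strand: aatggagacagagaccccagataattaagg
Cdkn2a probe at chr4:88920405-88920464, minus strand: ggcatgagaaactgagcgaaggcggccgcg
Cdkn2c probe at chr4:109333779-109333838, minus strand: tctcactgacctcacactgtccgttagttg
The Ccnd1 probe is the only probe of its gene. The Cdk4 probe printed is the dimmest of the 4 probes of Cdk4, and the Cdkn1a probe is the one that the annotation ties to transcript variant 2 alone.

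All 10 members were well above background on the 3 arrays at their brightest probe (highest mean over the arrays), which is the probe used unless another is named. In SPA, the members lay close to SVC. None of the 10 was at least 2-fold higher and none at least 2-fold lower, a fold that 3.92% of 22549 genes passed upward and 3.27% downward. At that probe, 9 of the 10 had a lower level in SPA than in SVC, and the other, Cdkn2b, differed by 0.00 on the log2 scale. Of the genes well above background in SPA and SVC, 44.2% had a lower ratio than Cdkn2b. The dimmest probes of Ccnd3, Cdk6 and Cdkn1a read higher in SPA, by 0.06, 0.17 and 0.16, and the other probes of these genes read lower. For SPA over SVC, the median of the log2 ratios was -0.20 for the members and 0.07 for all genes. In MA, by contrast, 2 members were at least 2-fold higher than in SPA, which 15.8% of 23953 genes were, and 5 were at least 2-fold lower, which 17.9% of the genes were. The inhibitors Cdkn2c and Cdkn1b were higher in MA, and Ccnd1, Cdk4, Cdk6, Cdkn2a and Cdkn2b were lower. Between MA and SVC, which reuses the array of MA, 1 member was at least 2-fold higher, against 17.3% of 23351 genes, and 5 were at least 2-fold lower, against 18.1%. At the 5-fold threshold of the study's methods, no member differed between SPA and SVC, where 0.324% of all genes were higher and 0.355% lower. At this threshold, 1 member was higher in MA than in SPA (5.49% of all genes) and 1 was lower (3.98%), namely Cdkn2c and Cdkn2a. In MA against SVC, 1 member passed 5-fold upward (5.76% of all genes) and 3 downward (3.99%), the kinases joining Cdkn2a.

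**Figure D1:**
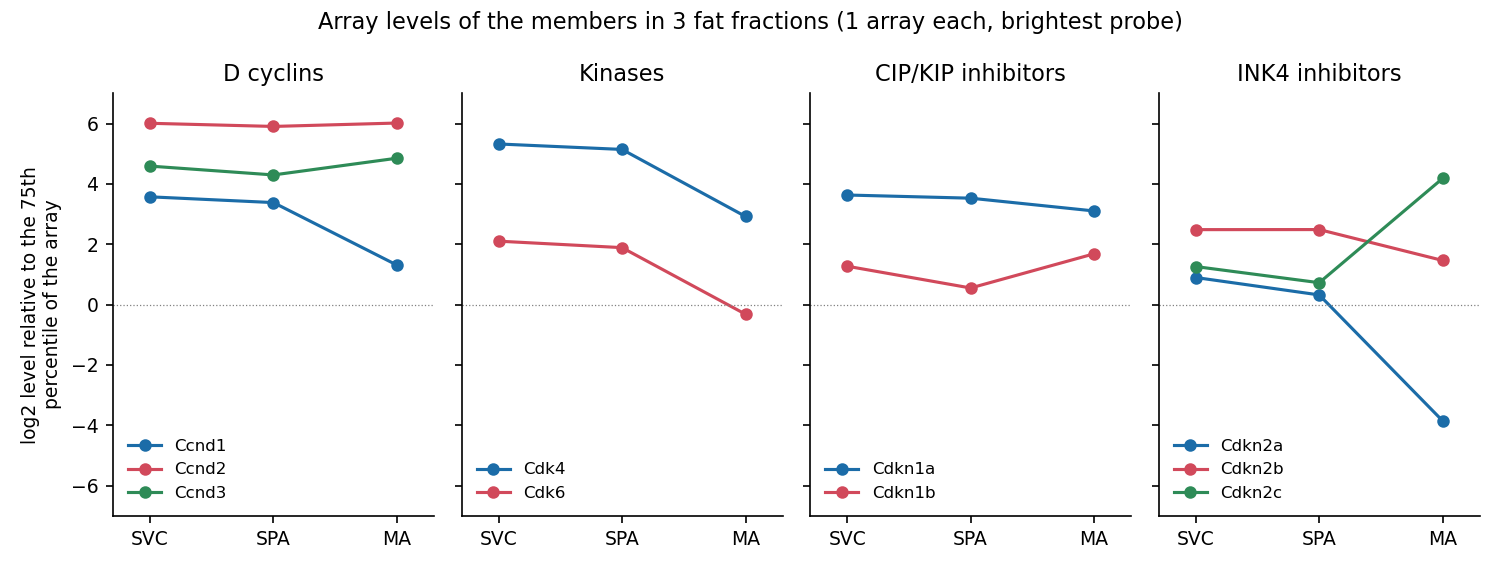
Level of each of the 10 members (y axis, log2 scale, 0 being the 75th percentile of an array) in SVC, SPA and MA (x axis), with 1 point for 1 array and no error bars because each group has 1 array. Lines join the values of a gene at its brightest probe, and heights of different genes are not comparable. Levels of SVC and SPA lie close together for all 10 members, while in MA Cdkn2c is higher and Ccnd1, Cdk4, Cdk6, Cdkn2a and Cdkn2b are lower.

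The D cyclins, which couple growth factor signals to the cell cycle, parted in MA. Ccnd1, the D cyclin most closely tied to mitogen signals, had a level of 3.57 in SVC, 3.38 in SPA and 1.31 in MA. MA stood apart from the others, 4.21-fold below SPA and 4.80-fold below SVC, while SPA and SVC differed by -0.19 on the log2 scale. The level of Ccnd2, another D cyclin, was 6.01 in SVC, 5.91 in SPA and 6.02 in MA. All 3 probes of Ccnd2 read within 2-fold in every comparison, with log2 ratios of MA over SPA between 0.11 and 0.55. With quantile normalization, in which all arrays get the same distribution of intensities, the ratio at the brightest probe was 0.86 for MA over SPA and 0.84 for MA over SVC, which is still under 2-fold. The level of Ccnd3, a D cyclin that is known to rise when preadipocyte lines differentiate, was 4.59 in SVC, 4.30 in SPA and 4.85 in MA. Its ratio of MA over SPA was 0.56 and 0.54 on the log2 scale at probes that share 53 bases, and -0.76 at the dimmest probe, which the array ties to another transcript. Thus the difference in D cyclins between MA and the cultured fractions passed 2-fold in Ccnd1 alone of the 3 genes.

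Both kinases were lower in MA by a like amount. Cdk4, the catalytic partner of the D cyclins, had a level of 5.33 in SVC, 5.15 in SPA and 2.92 in MA, which was 4.67-fold below SPA and 5.29-fold below SVC. The same direction was found at all 4 probes of Cdk4, with log2 ratios of MA over SPA between -2.22 and -1.74 and of SPA over SVC between -0.36 and -0.18. The coding probe printed above had processed signals of 3676 in SVC, 3045 in SPA and 635 in MA, with MA 3.996-fold below SPA. Cdk6, the other D cyclin kinase, had a level of 2.10 in SVC, 1.89 in SPA and -0.32 in MA, which was 4.62-fold below SPA and 5.36-fold below SVC. A further Cdk6 probe read 6.10-fold lower in MA than in SPA. At the dimmest Cdk6 probe, which the array ties to another transcript, MA was not well above background, and the difference was at least 3.83-fold. The log2 ratio of SPA over SVC was 0.17 at this probe and -0.21 and -0.26 at the brighter ones.

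The 250 bases before the start of Cdk4 are shown because they hold an unusual number of E-boxes, the CACGTG element that is bound by MYC and related factors. They lie at chr10:127063285-127063534 on the plus strand of GRCm38.p6 and are taken from RefSeq, with CACGTG in capitals.
Cdk4 promoter: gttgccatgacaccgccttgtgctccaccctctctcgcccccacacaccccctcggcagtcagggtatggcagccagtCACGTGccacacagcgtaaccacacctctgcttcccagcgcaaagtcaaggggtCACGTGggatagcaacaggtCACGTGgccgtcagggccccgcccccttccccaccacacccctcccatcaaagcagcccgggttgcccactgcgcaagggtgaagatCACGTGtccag
The 4 matches begin 172, 118, 98 and 11 bases before the start. CACGTG, which reads the same on both strands, is present in 6.02% of 32851 promoter windows of this length, and 4 or more copies are present in 7 windows. The window of Cdk6 holds 1 copy, 220 bases before the start, and none of the windows found for the other members holds any. Windows were found for 8 of the 10 members, 12 windows in all, and not for Ccnd1 and Ccnd2. A match is a description of these letters and not of a factor bound there. Myc itself was 3.20-fold higher in MA than in SPA, with levels of 0.27 in SVC, 0.31 in SPA and 1.99 in MA, and its log2 ratios over both its probes lay between 0.57 and 1.68. Mycn, a relative of Myc, was 2.63-fold lower in MA than in SPA.

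**Figure D2:**
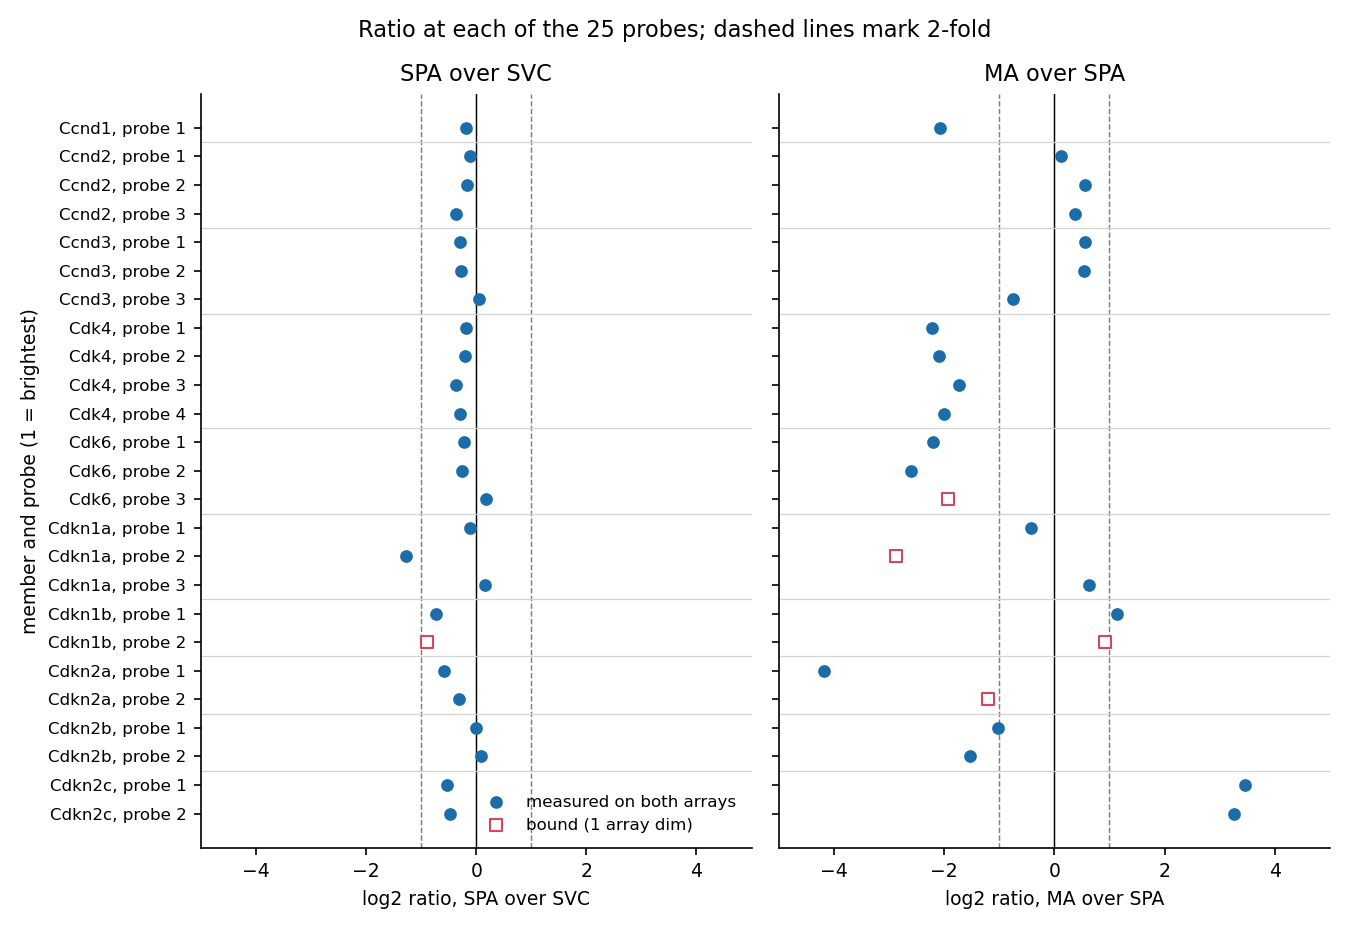
Log2 ratio (x axis) of SPA over SVC on the left and of MA over SPA on the right, at each of the 25 probes of the members (y axis, probe 1 is the brightest of its gene). Filled points were well above background on both arrays, open squares are bounds because 1 array was dim, and dashed lines mark 2-fold. Probes of a gene lie on the same side of 0 in MA over SPA except for Ccnd3 and Cdkn1a. A single plotted value, that of the Cdkn1a variant 2 probe, passes 2-fold in SPA over SVC, where the dimmer Cdkn1b probe is a bound.

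The CIP/KIP inhibitors differed from each other. Cdkn1b encodes p27, which holds resting cells out of the cycle. Its level was 1.27 in SVC, 0.55 in SPA and 1.68 in MA, so that SPA was the lowest, 1.65-fold below SVC, and MA was 2.19-fold above SPA and 1.33-fold above SVC. At the dimmer Cdkn1b probe SPA was again the lowest, not well above background, with MA at least 1.88-fold above it. MA and SVC were nearly equal there, with a log2 ratio of 0.03 from processed signals of 19.6 in MA and 22.6 in SVC. Cdkn1c, the p57 inhibitor, which is outside the set of 10 and has 1 probe, had another order, with levels of 0.13 in SVC, 2.21 in SPA and 3.14 in MA, and with a log2 ratio of SPA over SVC of 2.08.

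Cdkn1a encodes p21, the inhibitor that p53 induces after DNA damage. The probe shared by both annotated transcripts had a processed signal of 5342 in SVC, 5067 in SPA and 3147 in MA, and no pair of fractions differed 2-fold there. The probe tied to transcript variant 2 told the fractions apart. Its level was -0.99 in SVC, -2.27 in SPA and -5.31 in MA, where it was not well above background. It was 2.42-fold lower in SPA than in SVC, and in MA at least 7.37-fold below SPA and at least 17.8-fold below SVC. This was the only one of the 25 probes at which the ratio of SPA and SVC, or its bound, reached 2-fold. At the dimmer Cdkn1b probe SPA was at least 1.85-fold below SVC, a bound that leaves the size open. The remaining Cdkn1a probe, which the array ties to another transcript, ran the other way, with a log2 ratio of MA over SPA of 0.63 from processed signals of 24.3 in SPA and 31.4 in MA.

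The table of starts gives Cdkn1a a pair of starts 2790 bases apart. The window of the upstream start is shown because it holds a p53 response element, at chr17:29090729-29090978 on the plus strand of GRCm38.p6, with the element in capitals.
Cdkn1a upstream promoter: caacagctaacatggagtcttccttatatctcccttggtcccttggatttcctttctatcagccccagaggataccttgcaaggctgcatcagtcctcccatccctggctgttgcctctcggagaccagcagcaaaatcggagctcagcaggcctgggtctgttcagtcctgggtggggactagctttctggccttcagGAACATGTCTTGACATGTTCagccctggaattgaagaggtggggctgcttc
The element begins 51 bases before the start. Allowing 1 mismatch to the p53 consensus of abutting half-sites, on both strands, 25 of 32851 windows hold a match, and this is the only one among the 12 windows of the members. The allowance of a mismatch was chosen after this sequence had been read. Trp53, which encodes p53, was 3.53-fold lower in MA than in SPA, with levels of 1.99 in SVC, 1.65 in SPA and -0.17 in MA. Over a list of p53 and 15 of its targets and partners, 3 genes were at least 2-fold higher in MA than in SPA and 7 were at least 2-fold lower. Of all genes, 15.8% were higher and 17.9% lower by this rule. The median of the list was -0.61 against -0.07 over all genes. Btg2, an antiproliferative p53 target, was 58.3-fold higher, and Eda2r, a death receptor, was 5.93-fold lower. Bax and Zmat3 were also lower, by 4.03-fold and 3.96-fold.

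The INK4 inhibitors held both the highest and the lowest ratio of MA over SPA among the 10 members. Cdkn2c encodes p18, an inhibitor of CDK4 and CDK6. Its level was 1.26 in SVC, 0.73 in SPA and 4.19 in MA, or in processed signal 1031, 726 and 6661. MA stood 11.0-fold above SPA and 7.60-fold above SVC, while SPA was 1.45-fold below SVC. The other Cdkn2c probe, which shares 40 bases with it, gave 9.65-fold for MA over SPA. Of the genes well above background in MA and SPA, 97.9% had a smaller ratio than Cdkn2c.

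Cdkn2a encodes p16Ink4a and p19Arf from alternative first exons, the first an inhibitor of CDK4 and CDK6 and the second an activator of p53. Both its probes are annotated to transcripts of both products, so that these cannot be told apart here. The brightest probe had a level of 0.90 in SVC, 0.32 in SPA and -3.86 in MA, or in processed signal 802, 548 and 25.2. MA was 18.1-fold below SPA and 27.02-fold below SVC. When the background was corrected with normexp, MA over SPA read -2.71 in place of -4.18 on the log2 scale, and MA over SVC -3.26 in place of -4.76. Normexp was run with an offset of 50 added to each signal, which is more than the signal of 25.2 in MA. The other probe was dim in MA and at least 2.30-fold below SPA. Of the genes well above background in MA and SPA, 0.411% had a lower ratio than Cdkn2a.

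Cdkn2b, the gene of p15, lies beside Cdkn2a. Its level was 2.49 in SVC, 2.49 in SPA and 1.46 in MA, which was 2.03-fold below SPA and 2.03-fold below SVC, and the other probe gave 2.90-fold and 2.71-fold. With 3 of the other settings the ratio at the brightest probe fell short of 2-fold, at -0.99, -0.96 or -0.93 for MA over SPA on the log2 scale. Cdkn2d, the INK4 gene outside the set, had a level of 2.77 in SVC, 2.28 in SPA and 1.80 in MA and passed 2-fold in neither step. Of the INK4 genes, Cdkn2c was therefore the single one that was higher in MA.

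**Figure D3:**
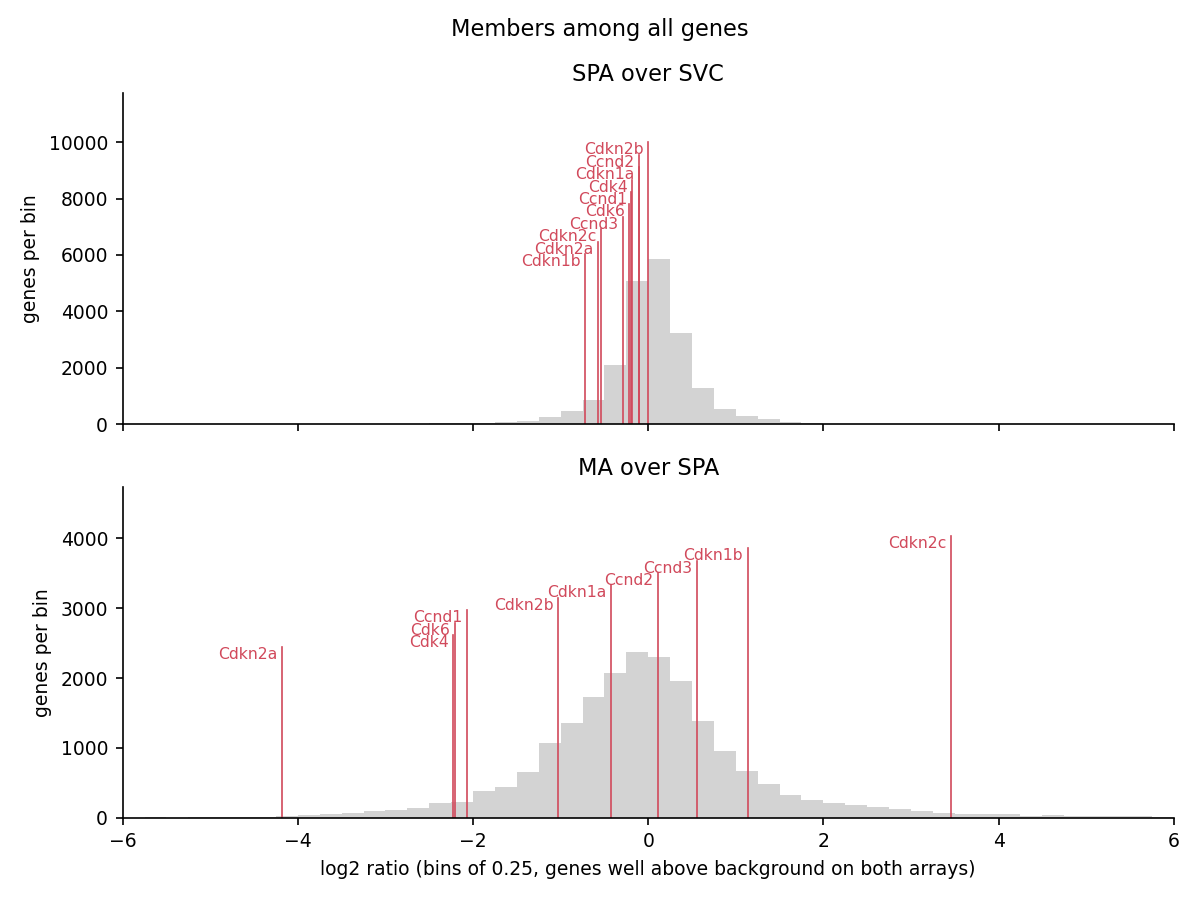
Number of genes (y axis) by log2 ratio (x axis, bins of 0.25) for SPA over SVC at the top and MA over SPA at the bottom, over genes well above background on both arrays. Red lines mark the 10 members, and their heights only separate the names. In SPA over SVC the members lie between -0.72 and 0.00, and in MA over SPA they reach from Cdkn2a at -4.18 to Cdkn2c at 3.46.

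The window before the upstream start of Cdkn2a, from which p19Arf is made, is shown for its E2F-type element, TTTCCCGC. It is the only one of the 12 windows found for the members that holds this element, searched on both strands and printed in capitals. Ccnd1 and Ccnd2 had no window and were not searched. It lies at chr4:89294620-89294869 on the minus strand of GRCm38.p6.
Cdkn2a upstream promoter: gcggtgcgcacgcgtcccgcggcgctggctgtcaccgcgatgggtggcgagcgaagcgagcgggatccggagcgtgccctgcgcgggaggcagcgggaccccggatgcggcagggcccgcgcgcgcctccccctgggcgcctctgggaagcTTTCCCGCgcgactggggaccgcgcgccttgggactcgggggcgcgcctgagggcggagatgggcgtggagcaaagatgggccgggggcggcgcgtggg
The element begins 99 bases before the start and is present in 0.895% of all windows. TTTCGCGC, another E2F-type element, is present in 0.256% of all windows and in none of the windows found for the members. Further E2F-type elements were not searched. E2f1, a factor that such elements bind, was 4.08-fold lower in MA than in SPA, and E2f8, a repressor of the family, was 7.75-fold lower at its brightest probe, with log2 ratios from -2.95 to -0.999 over its 3 probes.

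The genes on which these members act were taken from lists chosen by function. The counts of these lists stand against 15.8% of all genes at least 2-fold higher in MA than in SPA and 17.9% lower. Cyclin E acts on the step after the D cyclins, and Ccne1 was 6.16-fold lower in MA than in SPA, with levels of 3.04 in SVC, 3.01 in SPA and 0.38 in MA. Ccne2 was dim in MA and at least 2.26-fold lower, and Cdk2, the partner of cyclin E, had a log2 ratio of -0.27. Among the pocket proteins and E2F factors, 9 of 13 were at least 2-fold lower in MA than in SPA at their brightest probe. None was at least 2-fold higher there, and the list had a median of -1.19. Probes of some of these genes disagreed. Those of E2f6 ranged from -1.54 to 0.64 and those of E2f7 from -1.11 to -0.16, both counted as lower. The probes of Tfdp2, a partner of E2F factors that was not counted, ranged from -1.32 to 0.97. The 3 pocket proteins had ratios of different sign. Rb1, the main substrate of the D cyclin kinases, had a log2 ratio of 0.87 and Rbl2, the p130 protein of resting cells, of 0.67, whereas Rbl1, the p107 protein of cycling cells, was 2.28-fold lower at its brightest probe. The 3 probes of Rbl1 ranged from -1.23 to -0.32, so that the 2-fold difference is lost at 1 or more of them.

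All 13 E2F target genes of S phase were at least 2-fold lower in MA than in SPA, with a median of -2.71 on the log2 scale, and so were all 10 genes of G2 and mitosis, with a median of -3.15. Rrm2, a subunit of ribonucleotide reductase, was 17.3-fold lower, and Plk1, a mitotic kinase, was 18.4-fold lower. In SPA over SVC, the same lists had medians of -0.23 and -0.81. Cdc20, which starts the exit from mitosis, was the only one of these 23 genes that passed 2-fold at its brightest probe, with a log2 ratio of -1.25. Plk1 fell just short, at -0.99, and the probes of the mitotic cyclin gene Ccnb1 ranged from -1.31 to -0.67. Of the 6 genes that activate the kinases, 3 were at least 2-fold lower in MA than in SPA. Cdc25a, the phosphatase that activates CDK2, was 5.08-fold lower, while Cdc37, a chaperone of CDK4, was 2.21-fold lower, with probes from -1.15 to -0.69. The chaperone gene Hsp90ab1 was just past the threshold, with levels of 7.51 in SPA and 6.51 in MA.

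**Figure D4:**
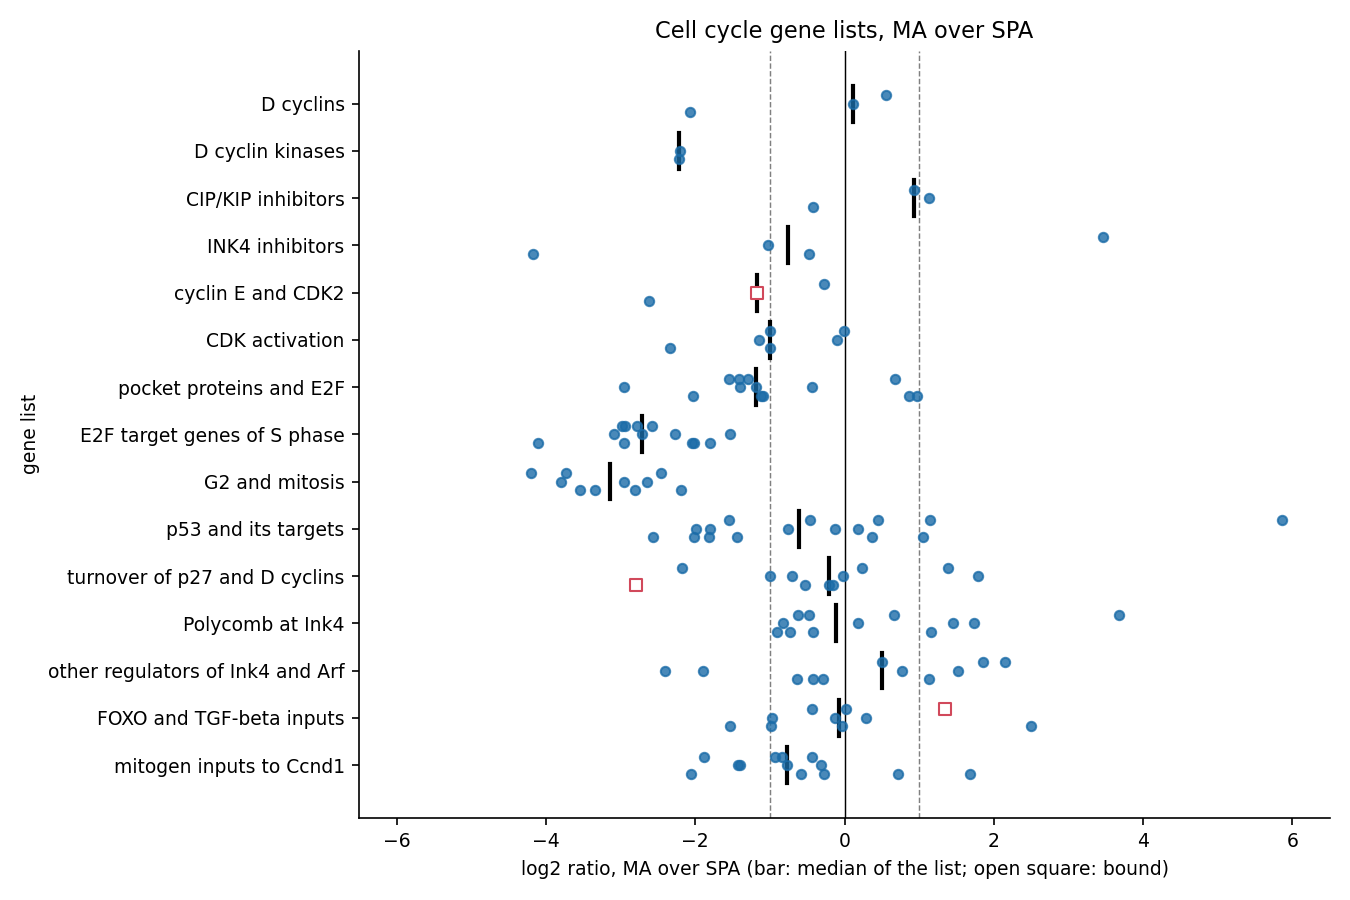
Log2 ratio of MA over SPA (x axis) for each gene of 15 cell cycle lists (y axis), with 1 point for 1 gene at its brightest probe, open squares for bounds, black bars for the median of the list and dashed lines at 2-fold. All genes of the S phase and of the G2 and mitosis lists lie left of the line at -1, and the INK4 list reaches from Cdkn2a to Cdkn2c.

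Genes that set the amount of the inhibitors were read in the same way. In the list for the turnover of p27 and the D cyclins, 2 of 11 genes were at least 2-fold higher in MA than in SPA and 2 were at least 2-fold lower. These counts are near the shares over all genes, 15.8% higher and 17.9% lower, and the median of the list was -0.21. Skp2, the ubiquitin ligase subunit that sends p27 to the proteasome, had levels of -1.62 in SVC and -2.36 in SPA, and in MA it was not well above background and at least 6.91-fold below SPA. Its cofactor Cks1b, with levels of 3.79 in SPA and 2.79 in MA, stayed just under the threshold there and passed it at another probe, with -1.23, and Cks2, a relative of Cks1b, was 4.52-fold lower. Fbxo4 and Fbxo31, subunits of ligases that act on cyclin D1, were 3.44-fold and 2.63-fold higher, but the probes of Fbxo31 ranged from -0.04 to 1.39 on the log2 scale.

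Polycomb proteins silence the Cdkn2a and Cdkn2b locus in dividing cells. Of 12 such genes and their opponents, 4 were at least 2-fold higher in MA than in SPA and none was lower, against 15.8% and 17.9% of all genes. The median of the list was -0.12. Kdm6b, a demethylase that removes the mark of Polycomb, was 12.8-fold higher, with a level of -0.42 in SVC, -0.48 in SPA and 3.20 in MA. Jarid2, Cbx7 and Ezh1 were 3.33-fold, 2.73-fold and 2.22-fold higher, although the probes of Cbx7 ranged from -0.26 to 1.45 and those of Ezh1 from 0.80 to 1.53. Bmi1, the Polycomb subunit best known for holding Cdkn2a down, had a log2 ratio of -0.42, and Ezh2, the methyltransferase, of -0.82, with probes from -1.33 to -0.38. Among 11 other regulators of Cdkn2a, 4 were at least 2-fold higher and 2 were lower, with a median of 0.50. Id3, Ets2 and Ets1 were 4.43-fold, 3.60-fold and 2.86-fold higher, while Id2 was 5.29-fold lower and Npm1, which holds Arf in the nucleolus, 3.71-fold lower.

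Of 10 genes that carry FOXO and TGF-beta signals to Cdkn1b and Cdkn2b, 2 were at least 2-fold higher in MA than in SPA and 1 was lower. Over all genes the shares were 15.8% and 17.9%, and the median of the list was -0.08. Foxo1, a factor that induces Cdkn1b, was 5.63-fold higher, and Tgfb1, whose product induces Cdkn2b, was 2.90-fold lower. Of 13 genes that carry mitogen signals to Ccnd1, 1 was at least 2-fold higher, which was Myc, and 4 were at least 2-fold lower, with a median of -0.76. The receptor genes Pdgfra, Igf1r and Pdgfrb were 4.14-fold, 3.70-fold and 2.68-fold lower, and the probes of Igf1r ranged from -1.89 to -0.81. In SPA over SVC, the medians of the lists lay between -0.81 and 0.10, and the D cyclin and kinase lists had medians of -0.19 and -0.20.

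The members with the widest range over the arrays were Cdkn2a and Cdkn2c. Among 19864 genes well above background on all 3 arrays, the genes whose 3 levels, each set to its own mean, lay nearest to those of Cdkn2a were Cenph, Gsg2 and Ddias, at distances of 0.09, 0.13 and 0.13 on the log2 scale. Cenph encodes a centromere protein and Gsg2 the mitotic kinase haspin. For Cdkn2c the nearest were Clec2d, Hacd2 and Rtn2, at 0.04, 0.08 and 0.09. With 3 arrays such nearness is easily met, and 37 genes lay within 0.5 of Cdkn2a and 121 within 0.5 of Cdkn2c.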

How the data were processed

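Gene expression was measured with 1 Agilent 1-colour array of 60-base probes for each of SVC, SPA and MA, all on 1 slide. Samples were grouped by their labels. The authors deposited intensity values from Agilent Feature Extraction 10.7.3.1 as processed signals, after background subtraction and detrending, together with raw and background signals. They also deposited a value table, which holds the ratio of each processed signal to 1 constant per array and was used as an alternative. From the processed signals, log2 levels relative to the 75th percentile over all spots other than controls were computed, spots of a probe were averaged, and the probe with the greatest mean over the arrays stood for its gene. Where an array was dim, the higher of the probe's own signal and the lowest signal called well above background (SVC 13.9, SPA 12.5, MA 10.3) served as a bound, and such a difference is written as at least N-fold. A gene counted as called from 2-fold, since 1 array per group allows no test, and the 5-fold rule of the study's methods was an alternative. The members, the 15 gene lists and the 10 marker lists were chosen with earlier results of these data known. The summed level of the red cell markers is not reported here. All members were named at every probe, with up to 4 genes of each list and the relatives of the members. Trp53, Mycn, Cks1b, Bmi1, Ezh2 and Ets1 were added after their values were seen. Tfdp2, which was not called, and Skp2, which was dim in MA, were also named outside the choice of up to 4 genes. Probe positions are in mm9 and promoters in GRCm38.p6, and no position was converted. The scripts were tested on simulated data. R 4.3.3 (limma 3.58.1) and Python 3.11.15 (numpy 2.4.6, pandas 2.3.3, matplotlib 3.10.9) were used.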

Additional observations from a re-analysis of the deposited data

How the results depend on the processing

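The ratios of the 10 members were recomputed with 9 other settings, which gave 270 values. Of these, 264 had the same sign and 262 lay on the same side of 2-fold, and no called value changed its sign. The settings for dim probes and for spots of outlying local background could not change these values. At the probe used, every member was well above background and had no outlier mark. The value table shifts all ratios of a comparison alike. These counts and the next ones therefore include values that could not disagree. Of the 117 values of called members, 112 stayed at least 2-fold, and the others are those of Cdkn2b, with a log2 ratio of MA over SPA of -0.99 with normexp, -0.96 with quantile normalization and -0.93 with a percentile taken only over probes that every array detected, and of MA over SVC of -0.998 with normexp and -0.97 with that percentile. At 5-fold, 1 member was higher and 1 lower in MA than in SPA, and 3 were lower in MA than in SVC. With the probe of the largest ratio, 1 member, Cdkn1a, was at least 2-fold lower in SPA than in SVC. The other counts stayed between 4 and 6 where the main count was 5 and did not move elsewhere. With the probe of the largest ratio, Cdkn1a read -1.28 for SPA over SVC, -2.88 for MA over SPA and -4.16 for MA over SVC. The ratio of Cdkn2a moved to -2.71 with normexp for MA over SPA and to -3.26 for MA over SVC. The median of its probes gave -2.69 and -3.13. These medians average a measured ratio with the bound of the dim probe, so they are not measured ratios. With no filter on dim probes the median of MA over SVC was -0.19, and over genes well above background on both arrays it was -0.07. Signal over background limits the dim probes of Cdk6, Cdkn1a, Cdkn1b and Cdkn2a to bounds. No paired analysis was possible because each group holds 1 array. The causes of these shifts were not tested.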
